A study of Mus musculus with 9 samples.

Results

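Genes that build, remodel and anchor the actin cytoskeleton were followed in natural killer (NK) cells exposed to transforming growth factor β1 (TGF-β1), with and without the Smad3 inhibitor SIS3. The set was 40 genes named by symbol, and all 40 were found among the 16876 rows of the gene table. They were ordered by 9 roles: actin itself, the Arp2/3 complex, nucleation promoters and a formin, small GTPases and an exchange factor, proteins that bind monomers or sever and cap filaments, crosslinkers and bundlers, membrane linkers and an intermediate filament, adhesion linkers, and myosin II with tropomyosin.

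Bone marrow of C57BL/6 mice had been cultured into NK cells in MEM-α medium, with IL-7, Flt3L, SCF and IL-15 for 4 days and IL-15 and IL-2 for a further week. SIS3_TGFb cells received 10 µM SIS3 for 3 h and then 5 ng/mL TGF-β1 for 3 h, TGFb cells received only the TGF-β1, and Ctrl cells received neither. Each group had 3 libraries of polyadenylated RNA. The culture cytokines were thus shared by every group, no group had SIS3 alone, the sources used here give no solvent control, and the titles of the SIS3_TGFb libraries name SIS3 only. The labels do not say whether the 3 libraries of a group came from separate mice or cultures, so p-values measure the spread between these libraries, which may be technical.

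Actin filaments are built from globular monomers. Formins extend straight filaments, the Arp2/3 complex, switched on by WASP and WAVE family proteins under the small GTPases Cdc42 and Rac, starts branches, and cofilin, profilin and the thymosins set the supply of monomers. NK cells use this machinery to migrate and to form the immune synapse through which they deliver cytotoxic granules, with myosin II pulling on the filaments and talin, vinculin and the ezrin, radixin and moesin family tying them to the membrane. Many genes for actin and its binding proteins are known targets of serum response factor (SRF), which binds a DNA element named the CArG box and is switched on by the MRTF coactivators when free actin monomer runs low. TGF-β1 signals through Smad2 and Smad3, with Smad4.

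Promoter windows from 250 bases before to 50 bases after the gene start were present in the RefSeq sequences of build GRCm38.p6 for 37 of the 40 genes, all but Actb, Diaph1 and Rac2. Searched on both strands, the 10-base CArG box was in the windows of 4 of these 37 genes (10.8%) and of 143 of 9816 tested genes with a window (1.46%). The palindrome GTCTAGAC, a Smad3 and Smad4 binding sequence, was in none of the 37 and in 27 of the 9816 (0.275%). A match describes letters in this window only. Of the 4 windows with a CArG box, 3 belong to genes whose transcripts differed between some of the groups. The fourth, Actg1, belongs to one that passed no test under the main settings used here. In SIS3_TGFb against Ctrl alone, 62.5% of the 40 genes and 53.9% of all tested genes differed. The count of 3 therefore does not mark these genes out. All 4 windows are shown 5′ to 3′ on the strand of the gene, with the box in capitals. They lie at chr6:113377863-113378162 (plus strand) for Arpc4, chr14:20929148-20929447 (plus) for Vcl, chr10:128492960-128493259 (minus) for Myl6 and chr11:120348446-120348745 (minus) for Actg1. The box began 250, 227, 50 and 90 bases before the start used for the window, in that order. For Myl6, that start is the second of its 2 windows and lies inside the annotated gene.
Arpc4: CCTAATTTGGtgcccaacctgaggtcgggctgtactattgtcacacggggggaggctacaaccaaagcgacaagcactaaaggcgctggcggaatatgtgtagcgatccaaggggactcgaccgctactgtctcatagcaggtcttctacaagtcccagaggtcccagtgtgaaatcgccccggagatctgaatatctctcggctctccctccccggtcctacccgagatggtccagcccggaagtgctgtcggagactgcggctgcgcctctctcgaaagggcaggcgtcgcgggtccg
Vcl: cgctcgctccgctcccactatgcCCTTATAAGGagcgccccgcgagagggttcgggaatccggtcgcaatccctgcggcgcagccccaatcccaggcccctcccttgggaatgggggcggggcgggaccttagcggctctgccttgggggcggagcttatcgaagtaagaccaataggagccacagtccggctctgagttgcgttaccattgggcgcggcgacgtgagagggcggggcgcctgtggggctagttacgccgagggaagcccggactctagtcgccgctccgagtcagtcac
Myl6: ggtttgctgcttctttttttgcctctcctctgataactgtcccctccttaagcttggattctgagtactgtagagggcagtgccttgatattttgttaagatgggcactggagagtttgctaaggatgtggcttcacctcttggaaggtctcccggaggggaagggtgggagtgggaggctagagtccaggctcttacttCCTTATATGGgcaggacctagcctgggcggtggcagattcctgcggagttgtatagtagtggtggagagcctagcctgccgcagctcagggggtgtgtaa
Actg1: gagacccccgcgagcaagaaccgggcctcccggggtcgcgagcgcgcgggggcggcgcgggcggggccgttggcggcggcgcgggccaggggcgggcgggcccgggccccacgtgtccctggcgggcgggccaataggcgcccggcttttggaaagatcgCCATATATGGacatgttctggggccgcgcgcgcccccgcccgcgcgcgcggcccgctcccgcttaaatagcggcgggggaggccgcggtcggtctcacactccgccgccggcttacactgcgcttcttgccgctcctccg

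Values are CPM, expected counts relative to the library total, scaled by trimmed mean of M-values (TMM), and each gene was tested with edgeR's quasi-likelihood test in 1 fit of the 9 libraries, called at an adjusted p under 0.05 over the 12212 genes that passed the filter on low counts. All 40 genes passed that filter. Library totals ran from 15714973 to 16718673 expected counts. Ncr1, the NK receptor NKp46, averaged 77.4 ± 1.40 CPM in SIS3_TGFb, 39.5 ± 1.14 CPM in TGFb and 151 ± 4.86 CPM in Ctrl (SD, n = 3 each). Pmepa1, a known TGF-β target, averaged 121 ± 6.19, 137 ± 4.80 and 0.661 ± 0.205 CPM in the same order. The 9 NK markers summed to between 13022 and 13285 CPM in SIS3_TGFb, 11451 and 12631 CPM in TGFb, and 15703 and 16674 CPM in Ctrl. Most of each sum came from Gzmb and Prf1, which averaged 8278 and 6244 CPM in Ctrl. Other NK markers took other courses. Tbx21 averaged 27.8 CPM in SIS3_TGFb, 23.2 CPM in TGFb and 21.2 CPM in Ctrl, and Eomes 367, 517 and 544 CPM. TGFb replicate 3 stood apart from its group in a principal component analysis of all genes, and its 6 erythroid and megakaryocyte markers summed to 7.19 CPM, against 38.6 and 31.1 CPM in replicates 1 and 2. Markers of other cells were also present: 8 macrophage and monocyte markers summed to between 640.2 and 1222 CPM, and none of the 8 was at 0 in every library. Dendritic cell markers summed to between 441 and 867 CPM, mast cell and basophil markers 448 and 523, and neutrophil markers 220 and 298. By contrast, 6 fibroblast and stromal markers summed to between 0.768 and 1.89 CPM. A sum can hide opposite courses. Of the mast cell and basophil markers in SIS3_TGFb against Ctrl, Kit rose by 0.56 (log2), Cpa3 fell by 1.16 and Mcpt8 fell by 0.43. Ms4a2, Prss34 and Gata2 did not pass there. Prss34 stood at 3.46 CPM in TGFb replicate 3, against 34.2 and 21.0 CPM in replicates 1 and 2. In bulk RNA, fewer cells of a type and less RNA per cell cannot be told apart. The 3 comparisons share libraries, with each group serving in 2. Their values are therefore set side by side, and no overlap between them is counted.

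The 40 genes held 3.59% to 3.62% of all counts in SIS3_TGFb, 3.94% to 3.98% in TGFb and 3.85% to 3.86% in Ctrl. Their summed level was 34828 ± 154 CPM in SIS3_TGFb, 40539 ± 956 CPM in TGFb and 38880 ± 382 CPM in Ctrl (SD, n = 3 each, no test made of the sum). The 3 ranges of the share did not overlap. Per kilobase of exon, the highest levels in Ctrl were those of Tmsb4x, 5187 ± 152 CPM per kb, Actg1, 3339 ± 43.6, and Actb, 2539 ± 16.8 (SD, n = 3). The lowest was Actn1, a crosslinker, at 3.23 ± 0.529 CPM per kb.

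TGF-β1 alone moved the genes both ways. In TGFb against Ctrl, 9 of the 40 rose, 10 fell and 21 did not pass the test, where 34.3% of all genes tested passed, 17.9% up and 16.4% down. The 40 genes are highly expressed, with a median level of 9.0 log2 CPM, beside 4.60 over all genes. Among the 7838 genes at or above the level of Actn1, the lowest of the 40 at 3.70 log2 CPM, 22.3% rose and 19.8% fell, beside 22.5% and 25% of the 40. These genes are not matched in level to the 40. With upper-quartile scaling in place of TMM, 6 rose and 14 fell, and over all genes 1807 rose and 2568 fell. Their median log2 change was -0.02, beside -0.00 over all genes tested. Changes of at least 0.5 (log2) were found for Vim and Myh9, which rose, and Tpm4, which fell. Rises and falls of that size were called for 7.3% and 4.23% of all genes. The libraries of the 2 groups did not overlap for 24 of the 40 genes and for 45% of all genes.

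With SIS3 before TGF-β1, most of the genes were lower than with TGF-β1 alone. In SIS3_TGFb against TGFb, 26 of the 40 fell, 3 rose (Actr3, Zyx and Tpm4) and 11 did not pass, where 41.8% of all genes passed, 20.6% down and 21.2% up. Among the 7838 genes at or above the level of Actn1 29.2% fell and 22.1% rose, 51.3% in all, beside 72.5% of the 40. The median log2 change was -0.17 over the 40 and 0.01 over all genes, and none of the 40 changed by 0.5 or more, as 9.79% of all genes did, 7.31% up and 2.47% down. The libraries of the 2 groups did not overlap for 32 of the 40 genes and for 51.4% of all genes. Without TMM scaling 20 fell and 6 rose, beside 1501 falls and 3690 rises over all genes.

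Against untreated cells, more of the genes were lower than higher with SIS3 and TGF-β1. In SIS3_TGFb against Ctrl, 21 of the 40 fell, 4 rose (Vim, Myh9, Ezr and Wasf2) and 15 did not pass, where 53.9% of all genes passed, 24.9% down and 29% up. Among the 7838 genes at or above the level of Actn1 31.8% fell and 30.6% rose, 62.4% in all, beside 62.5% of the 40. The median log2 change was -0.11, beside 0.02 over all genes. Tmsb4x, Diaph1 and Tpm4 fell by 0.5 or more, as 7.08% of all genes did. The libraries of the 2 groups did not overlap for 32 of the 40 genes and for 61.1% of all genes. Without TMM scaling 19 fell and 8 rose, beside 2395 falls and 4222 rises over all genes.

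**Figure D1:**
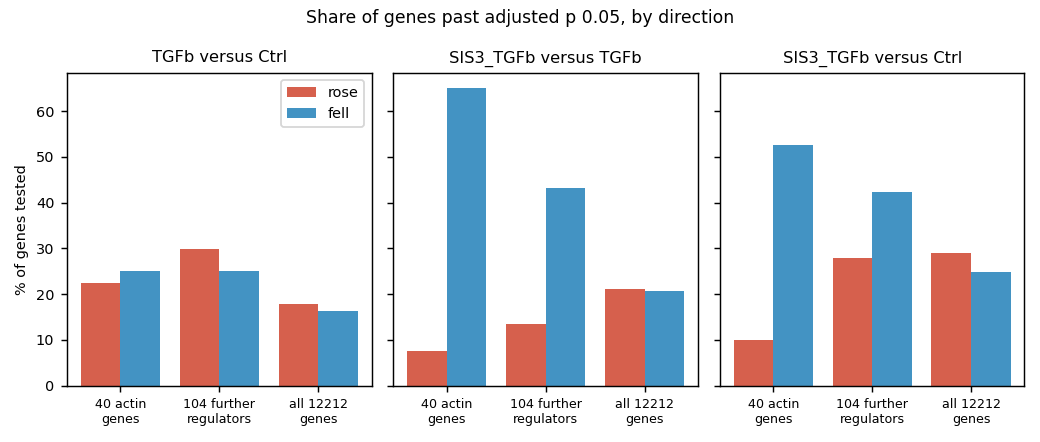
Bars give the percent of genes tested that rose (red) or fell (blue) at an adjusted p under 0.05, for the 40 actin genes, 104 further actin regulators and all 12212 genes, in each of the 3 comparisons. In SIS3_TGFb against TGFb, 65% of the 40 fell, beside 20.6% of all genes. Of the 7838 genes at or above the level of Actn1, which have no bar, 29.2% fell. In TGFb against Ctrl the bars for rises and falls are of like height.

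**Figure D2:**
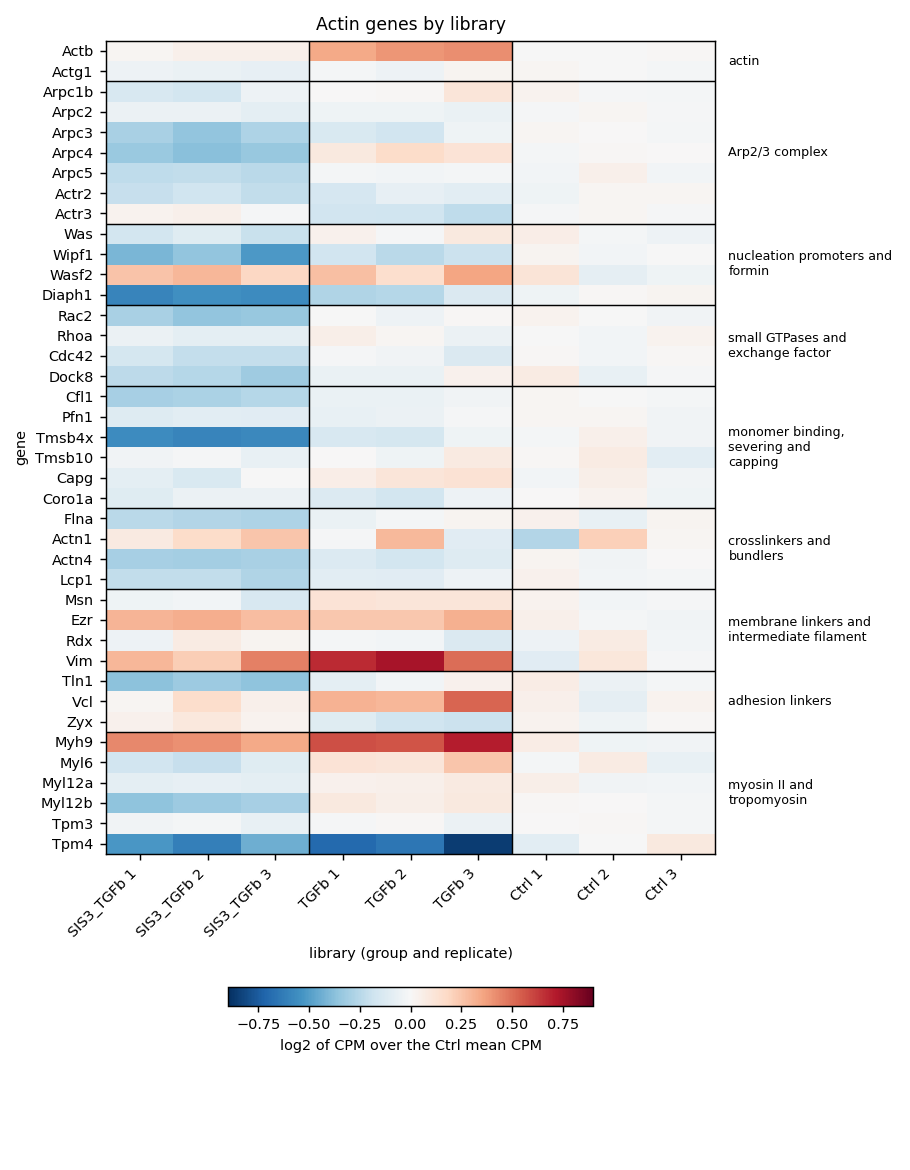
Each row is 1 of the 40 genes grouped by role and each column 1 library (SIS3_TGFb, TGFb, then Ctrl), coloured by the log2 of its CPM over the Ctrl mean. Vim and Myh9 are red in the 3 TGFb libraries, Tpm4 is blue there, and Tmsb4x and Diaph1 are bluest in the 3 SIS3_TGFb libraries.

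Cytoplasmic actin is encoded by Actb (β-actin) and Actg1 (γ-actin). Actb stood at 4944, 5021 and 5042 CPM in SIS3_TGFb, 6175, 6413 and 6509 CPM in TGFb, and 4854, 4858 and 4912 CPM in Ctrl. The TGFb libraries were all above the others, and those of SIS3_TGFb were all slightly above those of Ctrl. Actb rose by 0.38 ± 0.034 (log2, SE) in TGFb against Ctrl (adjusted p = 1.92e-07, edgeR) and fell by 0.35 ± 0.034 in SIS3_TGFb against TGFb (adjusted p = 9.85e-07). Its log2 difference of 0.04 ± 0.034 between SIS3_TGFb and Ctrl did not pass the test (adjusted p = 0.376, edgeR). Without TMM scaling that difference passed (log2 0.098, adjusted p = 0.0085, edgeR). Actg1 stood at 6301, 6260 and 6207 CPM in SIS3_TGFb, 6431, 6318 and 6642 CPM in TGFb, and 6612, 6497 and 6446 CPM in Ctrl. It passed no test, with log2 differences of -0.01 in TGFb against Ctrl and -0.05 in SIS3_TGFb against TGFb. With upper-quartile scaling or DESeq2, however, its fall in SIS3_TGFb against Ctrl passed (log2 -0.095 and -0.080). In the GENCODE M21 annotation 51.1% of the 100-base stretches of Actg1 transcripts also occur in other genes, mainly a pseudogene, against 1.10% for Actb, so Actg1 counts are the less certain of the pair.

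The genes of the Arp2/3 complex, which nucleates branches, did not all move the same way. Of the 7, 1 rose and 3 fell in TGFb against Ctrl, beside 17.9% and 16.4% of all genes tested. In SIS3_TGFb against TGFb 1 rose and 5 fell, beside 21.2% and 20.6% of all genes. Arpc4, the subunit with the smallest p, stood at 183, 177 and 182 CPM in SIS3_TGFb, 245, 258 and 251 CPM in TGFb, and 228, 232 and 231 CPM in Ctrl. The 3 groups did not overlap, with TGFb highest and SIS3_TGFb lowest. Arpc4 rose by 0.13 ± 0.034 (log2) in TGFb against Ctrl (adjusted p = 0.00771), a call that ended with upper-quartile scaling, and fell by 0.48 ± 0.034 in SIS3_TGFb against TGFb (adjusted p = 3.3e-08, edgeR). Arpc4 overlaps Ttll3 on the same strand, where 8.48% of its 100-base stretches are shared. Ttll3 stood at 3.46 ± 0.486 CPM in SIS3_TGFb, 5.43 ± 0.374 CPM in TGFb and 5.94 ± 0.463 CPM in Ctrl (SD, n = 3 each), and its part in the result was not tested.

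Actr3 (Arp3), an actin-related subunit, took the opposite course. It stood at 584, 588 and 567 CPM in SIS3_TGFb, 505, 504 and 486 CPM in TGFb, and 566, 579 and 567 CPM in Ctrl. The TGFb libraries were lowest, and those of SIS3_TGFb and Ctrl overlapped. Actr3 fell by 0.20 ± 0.033 in TGFb against Ctrl (adjusted p = 0.000223, edgeR) and rose by 0.22 ± 0.033 in SIS3_TGFb against TGFb (adjusted p = 8.42e-05). It did not pass in SIS3_TGFb against Ctrl (log2 0.02), though it did without TMM scaling (log2 0.083). Of its 100-base stretches in the GENCODE M21 annotation, 22.4% also lie in other genes, mainly Gm8822. Its partner Actr2 (Arp2) fell by 0.11 in TGFb against Ctrl and by 0.10 in SIS3_TGFb against TGFb. The first of these Actr2 calls ended without Ctrl replicate 2 or 3 or TGFb replicate 1 and with only TGFb and Ctrl in the fit. The adjusted p was then at most 0.11 (edgeR). The second ended without TMM scaling (adjusted p = 0.77, edgeR) and with upper-quartile scaling (adjusted p = 0.051, edgeR). This second call also ended without replicate 2 or 3 of TGFb or replicate 1 or 3 of SIS3_TGFb.

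Arpc1b, the subunit isoform lost in a human immunodeficiency, stood at 601, 592 and 646 CPM in SIS3_TGFb, 667, 671.5 and 716 CPM in TGFb, and 680, 659 and 656 CPM in Ctrl. SIS3_TGFb libraries were lowest, and those of TGFb and Ctrl overlapped. Arpc1b fell by 0.16 ± 0.041 in SIS3_TGFb against TGFb (adjusted p = 0.00518, edgeR), a call that ended without TMM scaling, and did not pass in TGFb against Ctrl (log2 0.04). Of its 100-base stretches, 31.1% also lie in transcripts of other genes, mainly Pdap1, which had 62.3 ± 1.49 CPM in SIS3_TGFb, 64.8 ± 1.69 CPM in TGFb and 62.2 ± 4.01 CPM in Ctrl (SD, n = 3 each). Arpc5 fell by 0.21 in SIS3_TGFb against TGFb (adjusted p = 0.000102) and Arpc3 by 0.19 (adjusted p = 0.00101). Arpc3 also fell by 0.11 in TGFb against Ctrl (adjusted p = 0.0344, edgeR). That call ended when any 1 of the Ctrl libraries, TGFb replicate 1 or 2 or SIS3_TGFb replicate 1 was left out (adjusted p up to 0.168, edgeR). The same call also ended with only TGFb and Ctrl in the fit. Arpc2 passed no test, with log2 differences between -0.07 and -0.02. However, its fall in SIS3_TGFb against Ctrl passed with RLE or upper-quartile factors, DESeq2 or only these 2 groups in the fit. Its fall in TGFb against Ctrl passed with upper-quartile factors.

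**Figure D3:**
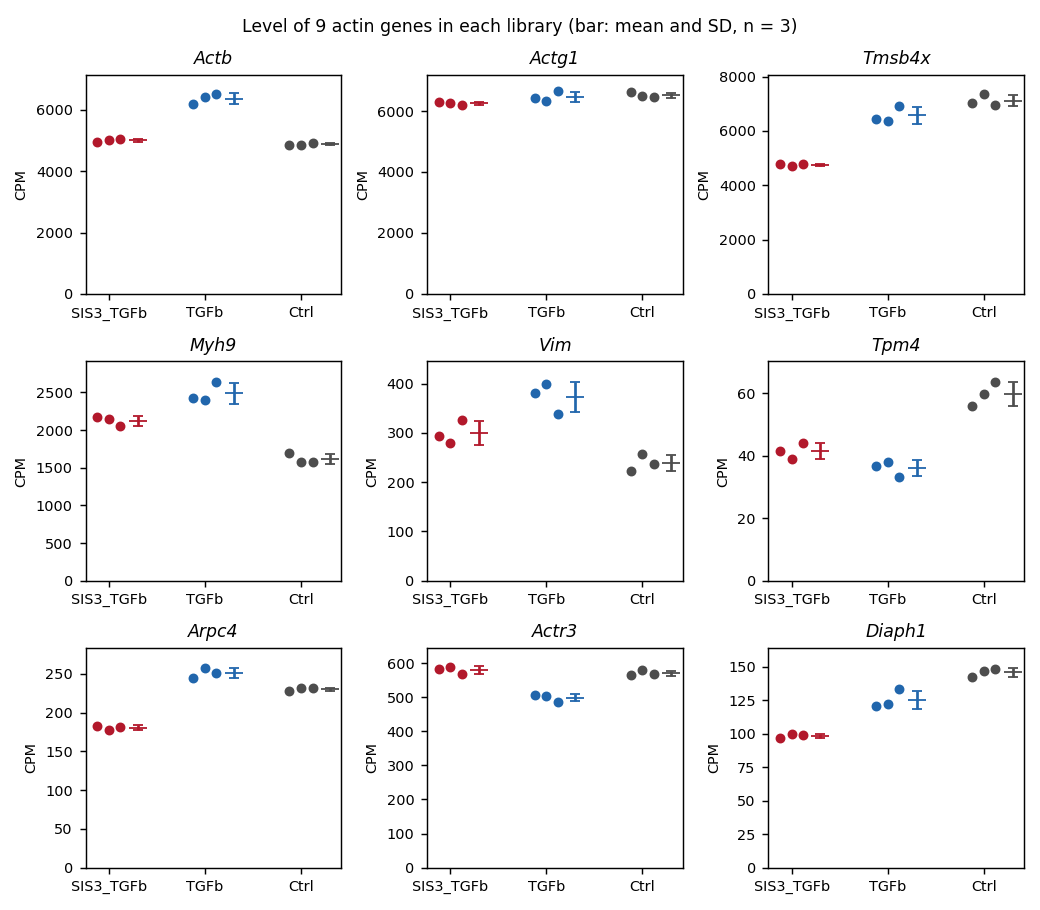
Points give the CPM of 9 genes in each of the 3 libraries of SIS3_TGFb, TGFb and Ctrl, with the group mean and SD beside them, on linear axes from 0. Actb, Myh9 and Vim are highest in TGFb, Actr3 is lowest there, and Tmsb4x, Arpc4 and Diaph1 are lowest in SIS3_TGFb.

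The activators of the complex and the formin also differed from one another. Wipf1 (WIP), the partner that protects the WASP protein, stood at 229, 238 and 213 CPM in SIS3_TGFb, 270, 258 and 267 CPM in TGFb, and 310, 299 and 304 CPM in Ctrl. The groups did not overlap and were lowest with SIS3 and TGF-β1 together. Wipf1 fell by 0.20 ± 0.041 in TGFb against Ctrl (adjusted p = 0.00108, edgeR) and by 0.22 ± 0.041 in SIS3_TGFb against TGFb (adjusted p = 0.000484), and the log2 difference of SIS3_TGFb from Ctrl was -0.43. Was, the WASP gene itself, fell by 0.20 in SIS3_TGFb against TGFb and by 0.16 in SIS3_TGFb against Ctrl, and its log2 value in TGFb against Ctrl was 0.04. Wasf2, which encodes the WAVE2 protein that acts downstream of Rac, rose by 0.26 ± 0.057 in TGFb against Ctrl (adjusted p = 0.00181) and by 0.25 ± 0.056 in SIS3_TGFb against Ctrl (adjusted p = 0.00146), and differed by -0.01 between SIS3_TGFb and TGFb.

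Diaph1 (mDia1), the formin activated by RhoA, stood at 96.8, 99.4 and 98.6 CPM in SIS3_TGFb, 121, 122 and 133 CPM in TGFb, and 142, 147 and 148 CPM in Ctrl. No library of one group reached those of another. Diaph1 fell by 0.22 ± 0.041 in TGFb against Ctrl (adjusted p = 0.000496, edgeR), by 0.35 ± 0.042 in SIS3_TGFb against TGFb (adjusted p = 7.92e-06) and by 0.57 ± 0.041 in SIS3_TGFb against Ctrl (adjusted p = 1.11e-08).

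None of the 4 genes for small GTPases and their exchange factor passed in TGFb against Ctrl, where 34.3% of all genes tested passed. Their log2 values lay between -0.06 and 0.01. With upper-quartile scaling Cdc42 passed there (adjusted p = 0.0452, edgeR). Rac2, the Rac of blood cells, stood at 938, 895 and 905 CPM in SIS3_TGFb, 1140, 1111 and 1153 CPM in TGFb, and 1173, 1142 and 1121 CPM in Ctrl. The SIS3_TGFb libraries were all below the other 6, which overlapped. Rac2 fell by 0.31 ± 0.035 in SIS3_TGFb against TGFb (adjusted p = 3.37e-06, edgeR). Dock8, the Cdc42 exchange factor lost in a human immunodeficiency, fell by 0.24 ± 0.0425 in the same comparison (adjusted p = 0.000307), and Cdc42, which controls polarity, by 0.14 ± 0.037 (adjusted p = 0.00662), the Cdc42 call ending without TMM scaling. Rhoa, which drives contractility, differed by -0.08 and did not pass (adjusted p = 0.0734, edgeR). That difference passed with RLE factors, with DESeq2 and with TGFb replicate 3 left out.

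The largest fall among the monomer-binding proteins was that of Tmsb4x, which encodes thymosin β4, the main sequestering peptide of many cells. It stood at 4795, 4721 and 4766 CPM in SIS3_TGFb, 6423, 6360 and 6926 CPM in TGFb, and 7026, 7348 and 6959 CPM in Ctrl. The groups did not overlap, and the SIS3_TGFb libraries lay within a narrow range far below the rest. Tmsb4x fell by 0.46 ± 0.040 in SIS3_TGFb against TGFb (adjusted p = 2.21e-07, edgeR) and by 0.58 ± 0.040 in SIS3_TGFb against Ctrl (adjusted p = 5.46e-09), a loss of 33.1% of its level in Ctrl. Its fall of 0.11 ± 0.039 in TGFb against Ctrl (adjusted p = 0.0345, edgeR) ended without replicate 1 or 2 of any group, with an adjusted p of up to 0.155. That call also ended with replicate number as a block and with only TGFb and Ctrl in the fit. Tmsb10, the relative of Tmsb4x, passed no test, with log2 differences between -0.05 and 0.02. In the annotation 21.5% of the 100-base stretches of Tmsb10 also lie in other genes, mainly Gm9844.

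Cfl1 (cofilin), which severs old filaments, did not pass in TGFb against Ctrl (log2 -0.05), though it did with upper-quartile scaling. Cfl1 fell by 0.23 ± 0.032 in SIS3_TGFb against TGFb (adjusted p = 3.19e-05, edgeR). Pfn1 (profilin), which feeds monomers to formins, fell by 0.11 ± 0.033 in SIS3_TGFb against Ctrl (adjusted p = 0.0131, edgeR). That call ended without TMM scaling (log2 -0.045, adjusted p = 0.185, edgeR) and without SIS3_TGFb replicate 1. Pfn1 had log2 values of -0.06 in SIS3_TGFb against TGFb and -0.04 in TGFb against Ctrl. The first of these values did not pass, though it did with DESeq2 (adjusted p = 0.0423). Capg, a capping protein of macrophages and other cells, fell by 0.18 ± 0.040 in SIS3_TGFb against TGFb (adjusted p = 0.00258), a call that ended without TMM scaling. Coro1a, the coronin of blood cells, fell by 0.11 ± 0.038 in TGFb against Ctrl (adjusted p = 0.034, edgeR). That call ended without replicate 1 or 2 of Ctrl or TGFb or SIS3_TGFb replicate 2 (adjusted p up to 0.161, edgeR). Replicate number as a block, or only TGFb and Ctrl in the fit, also ended that call. In SIS3_TGFb, Coro1a had log2 differences of 0.04 from TGFb and -0.07 from Ctrl, which did not pass. The first passed without TMM scaling (log2 0.125, adjusted p = 0.00743, edgeR). The second passed with upper-quartile scaling (log2 -0.105, adjusted p = 0.0367, edgeR).

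Among crosslinkers and bundlers, Lcp1 (L-plastin), the bundler of leukocytes, stood at 1519, 1521 and 1469 CPM in SIS3_TGFb, 1660, 1649 and 1714 CPM in TGFb, and 1822, 1738 and 1752 CPM in Ctrl. The groups did not overlap. Lcp1 fell by 0.16 ± 0.035 in SIS3_TGFb against TGFb (adjusted p = 0.002, edgeR). Its log2 difference of -0.08 in TGFb against Ctrl did not pass (adjusted p = 0.086, edgeR). That difference passed with upper-quartile scaling, without TMM scaling, with DESeq2 and without TGFb replicate 3. Flna (filamin A), which joins filaments into networks, fell by 0.25 ± 0.037 in SIS3_TGFb against TGFb (adjusted p = 7.72e-05) and had a log2 value of -0.02 in TGFb against Ctrl. Actn4 (α-actinin 4) fell by 0.14 in TGFb against Ctrl (adjusted p = 0.00439) and by 0.16 in SIS3_TGFb against TGFb (adjusted p = 0.00113), the second of these ending without TMM scaling. Actn1, its low-level relative at 13.8 ± 0.818 CPM in SIS3_TGFb, 12.9 ± 1.88 CPM in TGFb and 12.3 ± 2.01 CPM in Ctrl (SD, n = 3 each), passed no test.

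**Figure D4:**
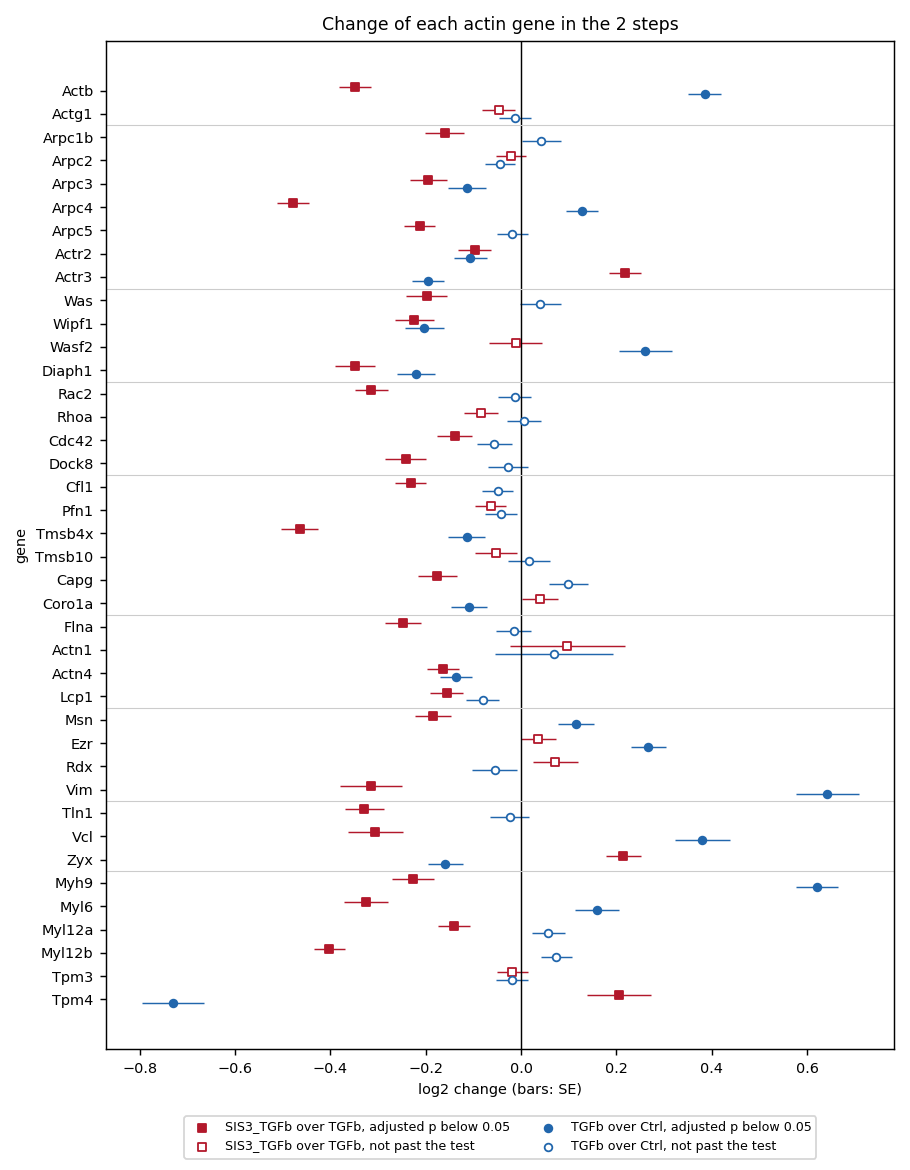
Squares give the log2 change of each gene in SIS3_TGFb over TGFb and circles that in TGFb over Ctrl, with the SE as a bar, filled where the adjusted p was under 0.05. Both changes use the TGFb libraries. Most squares lie left of 0, with Arpc4, Tmsb4x and Myl12b farthest, and the circles lie on both sides, with Vim and Myh9 farthest right and Tpm4 farthest left.

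In the ezrin, radixin and moesin family, which ties filaments to membrane proteins, the members differed. Msn (moesin), with the highest level of the 3 per kilobase, stood at 1043, 1054 and 970.1 CPM in SIS3_TGFb, 1169, 1158 and 1159 CPM in TGFb, and 1097, 1054 and 1067 CPM in Ctrl. TGFb libraries were highest, and those of SIS3_TGFb and Ctrl overlapped. Msn rose by 0.12 ± 0.037 in TGFb against Ctrl (adjusted p = 0.024, edgeR), a call that ended with upper-quartile scaling and without replicate 2 or 3 of Ctrl or 1 or 2 of TGFb (adjusted p up to 0.125), and fell by 0.18 ± 0.037 in SIS3_TGFb against TGFb (adjusted p = 0.000925). Ezr (ezrin) rose by 0.27 ± 0.037 in TGFb against Ctrl (adjusted p = 3.27e-05, edgeR) and by 0.30 ± 0.037 in SIS3_TGFb against Ctrl (adjusted p = 4.49e-06, edgeR). Its log2 difference of 0.04 between SIS3_TGFb and TGFb did not pass, though it did without TMM scaling (log2 0.12, adjusted p = 0.00768, edgeR). Rdx (radixin) passed no test, its log2 differences running from -0.06 to 0.07. Without TMM scaling its rise in SIS3_TGFb against TGFb passed (adjusted p = 0.0239, edgeR).

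Vim (vimentin), the intermediate filament protein of leukocytes and mesenchymal cells, stood at 294, 279 and 327 CPM in SIS3_TGFb, 380, 399 and 339 CPM in TGFb, and 223, 257 and 237 CPM in Ctrl. The groups did not overlap, with TGFb highest and Ctrl lowest. Vim rose by 0.64 ± 0.066 in TGFb against Ctrl (adjusted p = 1.12e-06, edgeR), fell by 0.31 ± 0.065 in SIS3_TGFb against TGFb (adjusted p = 0.00119) and rose by 0.33 ± 0.066 in SIS3_TGFb against Ctrl (adjusted p = 0.000585). The library highest for Vim in SIS3_TGFb and the one lowest in TGFb, replicate 3 of each, were also the highest and lowest of their groups for the summed macrophage markers, at 1222 CPM among 724.9 to 1222 and at 640.2 CPM among 640.2 to 1003 CPM. Without both libraries the log2 values of Vim were 0.70 in TGFb against Ctrl and -0.44 in SIS3_TGFb against TGFb, and the markers' part in Vim was not tested.

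The adhesion linkers couple integrins to actin. Tln1 (talin 1), which activates integrins, stood at 837, 864 and 840.4 CPM in SIS3_TGFb, 1019, 1061 and 1111 CPM in TGFb, and 1132, 1044 and 1068 CPM in Ctrl. The SIS3_TGFb libraries were lowest, and TGFb and Ctrl overlapped. Tln1 fell by 0.33 ± 0.041 in SIS3_TGFb against TGFb (adjusted p = 1.08e-05, edgeR), with a log2 value of -0.02 in TGFb against Ctrl.

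Vcl (vinculin), which strengthens the talin link and has a CArG box in the window shown above, stood at 98.9, 109 and 100.4 CPM in SIS3_TGFb, 121, 120.1 and 140 CPM in TGFb, and 101, 92.2 and 99.7 CPM in Ctrl. TGFb libraries were highest, and the other groups overlapped. Vcl rose by 0.38 ± 0.058 in TGFb against Ctrl (adjusted p = 8.19e-05, edgeR) and fell by 0.31 ± 0.058 in SIS3_TGFb against TGFb (adjusted p = 0.000568). It shares 38.6% of its 100-base stretches with Ap3m1 on the opposite strand, and the sources used here do not give whether counting used strand. Ap3m1 had 63.8 ± 2.45 CPM in SIS3_TGFb, 72.9 ± 5.22 CPM in TGFb and 77.5 ± 1.90 CPM in Ctrl (SD, n = 3 each), and its part in the result was not tested. Zyx (zyxin), a sensor of tension at adhesions, fell by 0.16 ± 0.036 in TGFb against Ctrl (adjusted p = 0.0028, edgeR) and rose by 0.21 ± 0.036 in SIS3_TGFb against TGFb (adjusted p = 0.000222).

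Myosin II genes were also unequal. Myh9, the heavy chain of nonmuscle myosin IIA, stood at 2178, 2147 and 2049.7 CPM in SIS3_TGFb, 2421, 2398 and 2641 CPM in TGFb, and 1694, 1577 and 1579.7 CPM in Ctrl. The groups did not overlap, with TGFb highest and Ctrl lowest. Myh9 rose by 0.62 ± 0.044 in TGFb against Ctrl (adjusted p = 1.63e-08, edgeR), the smallest p of the 40 in that comparison, fell by 0.23 ± 0.044 in SIS3_TGFb against TGFb (adjusted p = 0.000735) and rose by 0.39 ± 0.044 in SIS3_TGFb against Ctrl (adjusted p = 1.79e-06).

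Myl12b, a regulatory light chain that binds it, stood at 241, 246 and 251 CPM in SIS3_TGFb, 328, 320 and 328 CPM in TGFb, and 312, 309 and 306 CPM in Ctrl. The SIS3_TGFb libraries were far below the rest. Myl12b fell by 0.40 ± 0.033 in SIS3_TGFb against TGFb (adjusted p = 1.34e-07, edgeR) and had a log2 value of 0.07 in TGFb against Ctrl, which did not pass (adjusted p = 0.0937). Myl12a, its near copy, fell by 0.14 ± 0.034 in SIS3_TGFb against TGFb (adjusted p = 0.00389, edgeR), a call that ended without TMM scaling. In SIS3_TGFb against Ctrl Myl12a differed by -0.08 and did not pass (adjusted p = 0.0522, edgeR), though it did with DESeq2 and limma voom, among other alternatives. The genes overlap on the same strand, 24.5% of the 100-base stretches of Myl12a also lie in Myl12b, and the split of reads between the 2 is uncertain. Myl6, the essential light chain, with a CArG box in the window shown above, rose by 0.16 ± 0.046 in TGFb against Ctrl (adjusted p = 0.0126), a call that ended with upper-quartile scaling and without replicate 3 of Ctrl or TGFb (adjusted p up to 0.075), and fell by 0.32 ± 0.046 in SIS3_TGFb against TGFb (adjusted p = 4.22e-05, edgeR).

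Tropomyosins wind along filaments and govern which proteins bind. Tpm4 stood at 41.6, 39.0 and 44.1 CPM in SIS3_TGFb, 36.8, 38.0 and 33.1 CPM in TGFb, and 56.0, 59.7 and 63.5 CPM in Ctrl. Ctrl libraries were far above the rest, and those of TGFb lay just below those of SIS3_TGFb. Tpm4 fell by 0.73 ± 0.065 in TGFb against Ctrl (adjusted p = 2.35e-07, edgeR) and by 0.52 ± 0.064 in SIS3_TGFb against Ctrl (adjusted p = 4.23e-06). Its rise of 0.21 ± 0.067 in SIS3_TGFb against TGFb (adjusted p = 0.0219) ended with DESeq2 and when TGFb replicate 3, SIS3_TGFb replicate 1 or SIS3_TGFb replicate 3 was left out, reaching an adjusted p of 0.241. Tpm3 passed no test, with log2 differences between -0.04 and -0.02. In the annotation 45.7% of its 100-base stretches are shared with Tpm3-rs7.

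Ratios of related genes within a library do not depend on how libraries are scaled, and they show unequal change only. The Actg1 to Actb ratio of expected counts was 1.27, 1.25 and 1.23 in SIS3_TGFb, 1.04, 0.985 and 1.02 in TGFb, and 1.36, 1.34 and 1.31 in Ctrl. The ratio was lowest in TGFb and the groups did not overlap. The Tmsb10 to Tmsb4x ratio was 0.105, 0.108 and 0.103 in SIS3_TGFb, 0.0804, 0.0786 and 0.0786 in TGFb, and 0.0738, 0.0737 and 0.0693 in Ctrl, a log2 difference of 0.41 between SIS3_TGFb and TGFb. The Tpm4 to Tpm3 ratio averaged 0.0818 in SIS3_TGFb, 0.0699 in TGFb and 0.115 in Ctrl, a log2 difference of -0.71 between TGFb and Ctrl. The Ezr to Msn ratio averaged 0.184, 0.158 and 0.142, and the Rdx to Msn ratio 0.0854, 0.0714 and 0.0804, in the same order of groups. Such ratios were not taken for other gene pairs. Of all 12212 genes taken singly, 45% had groups that did not overlap in TGFb against Ctrl. The shares were 51.4% in SIS3_TGFb against TGFb and 61.1% in SIS3_TGFb against Ctrl. The comparisons also share libraries, and the Ezr and Rdx pairs share Msn. A count of ratios without overlap therefore cannot mark these pairs out from others. Over 7 pairs and 3 comparisons, 17 of 21 differences had groups that did not overlap. Each of these had an exact two-sided permutation p of 0.1, the smallest that 3 against 3 libraries allow, and 0.124 after Benjamini-Hochberg adjustment, so this design cannot reach 0.05. The pairs that overlapped were Actn1 to Actn4 in TGFb against Ctrl and in SIS3_TGFb against TGFb, Myl12a to Myl12b in TGFb against Ctrl, and Rdx to Msn in SIS3_TGFb against Ctrl.

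**Figure D5:**
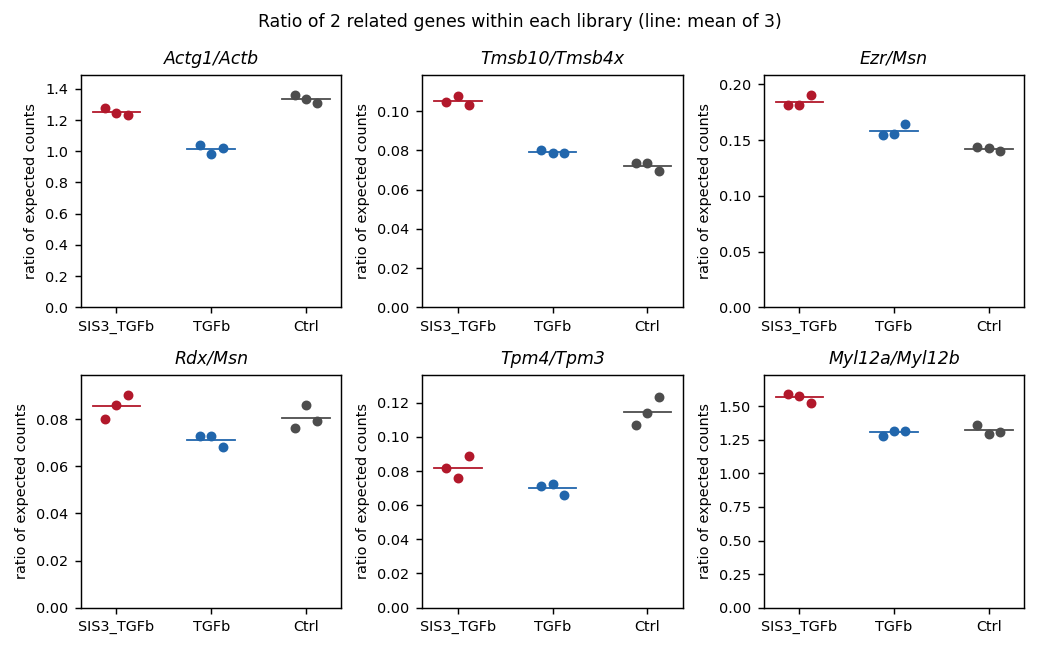
Points give the ratio of expected counts of 6 pairs of related genes in each library of SIS3_TGFb, TGFb and Ctrl, with a line at the mean, on linear axes from 0. The Actg1 to Actb ratio is lowest in TGFb, the Tmsb10 to Tmsb4x and Myl12a to Myl12b ratios are highest in SIS3_TGFb, and the Tpm4 to Tpm3 ratio is highest in Ctrl.

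The setting of these genes is given by 108 further regulators of actin, of which 104 passed the filter on low counts. In TGFb against Ctrl 31 rose, 26 fell and 47 did not pass, with a median log2 change of 0.02. In SIS3_TGFb against TGFb 14 rose, 45 fell and 45 did not pass, with a median of -0.09. In SIS3_TGFb against Ctrl 29 rose, 44 fell and 31 did not pass, with a median of -0.05. Over all genes, 17.9% rose and 16.4% fell in the first of these comparisons, 21.2% and 20.6% in the second, and 29% and 24.9% in the third.

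Of Srf and its MRTF coactivators, Srf averaged 44.2 ± 1.78 CPM in SIS3_TGFb, 38.0 ± 1.80 CPM in TGFb and 42.1 ± 1.32 CPM in Ctrl (SD, n = 3 each). It rose by 0.22 ± 0.054 in SIS3_TGFb against TGFb (adjusted p = 0.00457, edgeR) and just missed the test in TGFb against Ctrl (log2 -0.15, adjusted p = 0.0503). Mrtfa rose by 0.25 ± 0.046 in TGFb against Ctrl (adjusted p = 0.000507, edgeR) and by 0.20 ± 0.046 in SIS3_TGFb against Ctrl (adjusted p = 0.0015). Its log2 difference between SIS3_TGFb and TGFb was -0.05. Mrtfb rose by 0.19 in TGFb against Ctrl (adjusted p = 0.0324) and fell by 0.20 in SIS3_TGFb against TGFb (adjusted p = 0.0212, edgeR).

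The largest rises of the regulators in TGFb against Ctrl were those of Slc9a3r1 (NHERF1, a scaffold that binds ezrin), which averaged 97.2 ± 3.50 CPM in TGFb and 38.2 ± 1.32 CPM in Ctrl, Fmnl3 (a formin), 132 ± 4.22 and 58.8 ± 2.38 CPM, Abi3 (a WAVE complex subunit), 55.0 ± 3.05 and 26.4 ± 1.46 CPM, and Pxn (paxillin), 708 ± 23.0 and 383 ± 15.2 CPM (SD, n = 3 each). Their log2 changes were 1.35, 1.17, 1.06 and 0.89. The largest falls were those of Fgd4, a Cdc42 exchange factor, by 2.02 and Myh10 (myosin IIB heavy chain) by 0.90. Next were Pak1, a kinase activated by Rac and Cdc42, by 0.77 and Evl, a filament elongator, by 0.59. Both rankings cover only regulators with a mean log2 CPM of 1 or more. Below that level, a nucleation promoter or adaptor fell by 1.11 and passed the test. Fgd4, Myh10 and Pak1 had group means of at most 6.56 CPM.

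On the log2 scale, in SIS3_TGFb against TGFb the largest rises were those of Rnd1 (a small GTPase that opposes RhoA) by 0.70, Add3 (adducin 3) by 0.62, Stk10 (a kinase that phosphorylates ezrin and its relatives) by 0.43 and Lpxn (leupaxin) by 0.43. Fscn1 (fascin, a bundler) fell by 0.68, Gsn (gelsolin, which severs and caps) fell by 0.56, Diaph2 (a formin) fell by 0.49 and Myo9b (a myosin that inactivates RhoA) fell by 0.40, the largest falls. Gsn averaged 142 ± 2.43 CPM in SIS3_TGFb and 209 ± 17.9 CPM in TGFb, and Add3 110.3 ± 2.99 and 71.8 ± 3.37 CPM (SD, n = 3 each). Rnd1 and Fscn1 had group means under 5 CPM. Both rankings cover only regulators with a mean log2 CPM of 1 or more.

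In SIS3_TGFb against Ctrl on the log2 scale the largest rises were those of Slc9a3r1 by 1.34, Abi3 by 1.17, Swap70 (a filament binder that signals to Rac) by 0.96 and Marcksl1 by 0.95. Fgd4 fell by 1.76, Myh10 fell by 1.01, Pak1 fell by 0.97 and Sptbn1 (β-spectrin) fell by 0.71, the largest falls. These rankings, too, cover only regulators with a mean log2 CPM of 1 or more. Below that level, a small GTPase or regulator fell by 2.08 and a nucleation promoter or adaptor by 0.957, and both passed the test. Slc9a3r1 averaged 96.8 ± 0.922 CPM in SIS3_TGFb and 38.2 ± 1.32 CPM in Ctrl, and Sptbn1 84.9 ± 1.84 and 139 ± 6.14 CPM (SD, n = 3 each).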

How the data were processed

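RNA of 9 libraries was measured by sequencing, 3 per group, and the groups were taken from GEO's labels. The authors deposited 1 table of expected counts per gene, not scaled, with between 10.2% and 11.1% of values not whole. The submitters' processing notes name HISAT2, Bowtie2, RSEM, StringTie, Cufflinks and DESeq2 and builds GRCm38 and mm10; the sources used here do not give their roles or the use of strand in counting. Expected counts were rounded, genes kept by filterByExpr (minimum count 10, minimum total 15), and 12212 genes tested with edgeR 4.0.16 (R 4.3.3), TMM factors, 1 mean per group, the quasi-likelihood test and Benjamini-Hochberg adjustment; the SE was taken as |log2 change|/√F. The steps were tested on simulated data in which far fewer genes changed than were called here, with rises and falls balanced. That run does not show how scaling acts on these comparisons. Per-library values are given for members with a change of at least 0.5 or among the 4 smallest p of a comparison, and for the highest member of a role. Named regulators are Srf, Mrtfa and Mrtfb and the 4 largest rises and falls of a comparison whose mean log2 CPM was 1 or more; Actr3 and Vcl were given per-library values after these were seen, and all other members have folds, so that each is accounted for. The 40 genes, the regulators, the markers and the pairs were chosen with earlier results of these data known. Replicate pairs differed by more than counting noise, with a chi-square of 1.64 to 5.46 per degree of freedom. Exon lengths and shared 100-base stretches are from GENCODE M21. No interval is given for counting error, since each gene was tested across libraries. Alternatives were other scaling, no filter, DESeq2 1.42.0, limma 3.58.1 with voom, a replicate block, 2 groups only, a minimum change of 0.5 and leaving out each library. Leaving out replicate 3 of TGFb and of SIS3_TGFb together was added after seeing the data.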

Additional observations from a re-analysis of the deposited data

How the results depend on the processing

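No called change of the 40 genes reversed its direction under the alternatives run. Leaving aside the minimum log2 change of 0.5, the calls of 12 of the 19 genes in TGFb against Ctrl held under all 19 alternatives. In SIS3_TGFb against TGFb those of 22 of 29 held, and in SIS3_TGFb against Ctrl those of 23 of 25. Of the genes not called, 16 of 21 in TGFb against Ctrl stayed uncalled under all 19. The counts were 6 of 11 in SIS3_TGFb against TGFb and 4 of 15 in SIS3_TGFb against Ctrl. In TGFb against Ctrl the median log2 change of the 40 genes was -0.058 with upper-quartile scaling and -0.040 without scaling, 6 genes fell with only these groups in the fit, and leaving out 1 library gave 6 to 11 falls. In SIS3_TGFb against TGFb without scaling the median was -0.085, 6 of the 40 rose, 25 regulators rose and 28 fell, and 1501 of all genes fell. In SIS3_TGFb against Ctrl the median was -0.13 with RLE factors, -0.15 with upper-quartile factors, -0.13 with DESeq2 and -0.051 without scaling, where 8 of the 40 rose. No scaling moved the median of all genes by more than 0.0833 (log2). With a minimum log2 change of 0.5, the counts up and down were 2 and 1 genes and 13 and 6 regulators in TGFb against Ctrl, 0 and 0 genes and 2 and 2 regulators in SIS3_TGFb against TGFb, and 0 and 3 genes and 11 and 7 regulators in SIS3_TGFb against Ctrl. Where no gene of the 40 reached 0.5, 3 rose and 26 fell with no minimum, by edgeR.

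Same-numbered libraries did not deviate together, with correlations from -0.147 to 0.126, so the numbers were not taken as pairs. With the replicate block, 9 of the 40 rose and 8 fell in TGFb against Ctrl, 3 and 26 in SIS3_TGFb against TGFb and 4 and 21 in SIS3_TGFb against Ctrl. The calls lost under the block were those of Tmsb4x and Coro1a. Without replicate 3 of TGFb and of SIS3_TGFb, an alternative chosen after seeing the data, the counts were 9 and 11, 2 and 26, and 4 and 22. Actn1, the gene with the lowest level of the 40, had the largest SE, 0.121 to 0.123 (log2).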
